A study of Mus musculus with 112 samples.

Results

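The cytochrome P450 genes of families 2, 3 and 4 were followed across liver, epididymal fat and gastrocnemius muscle of male mice. A probe set was taken where its gene symbol was Cyp2 or Cyp4 followed by a letter, or Cyp3a followed by a number. This gave 49 of the 32640 probe sets on the array, for 43 of 16643 named genes. Family 2 had 35 probe sets for 30 genes, family 3 had 4 for 4 genes, and family 4 had 10 for 9 genes. Of 77 protein-coding genes of these families in the NCBI table, 42 had a probe set here and 35 did not.

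Littermates homozygous for Pro12Ala (Ala/Ala), a variant of the adipocyte nuclear receptor Pparγ, were set beside wild-type mice (Pro/Pro). Both genotypes were fed regular chow, or from 8 weeks of age a diet rich in fat (HFD), and the labels disagree on 15 or 12 weeks of diet and on the feed. Fat had 10 chow and 10 HFD arrays of Pro/Pro mice and 9 and 8 of Ala/Ala mice, muscle had 8 and 8 and then 10 and 9, and each of the 4 liver groups had 10, from 41 numbered mice. The variant is carried in the germ line, so every tissue of an Ala/Ala mouse holds it. Each value compares a mouse, as a log2 ratio, with the pooled HFD Pro/Pro mice of its tissue, so 0 is the pool's level. Levels of a gene cannot be compared between tissues or with other genes, a labelled tissue cannot be checked by the level of its markers, and precision is limited by how many arrays there are. In fat and liver the pool and the direction of the ratio were borne out by the arithmetic of the values. In muscle they were assumed, so the sign and size of muscle differences rest on that assumption.

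Cytochromes P450 are haem enzymes that insert an oxygen atom into their substrate with electrons from P450 reductase. Families 2 and 3 oxidise drugs, steroids and arachidonic acid, and several are induced in liver through the nuclear receptors CAR and PXR. Family 4 hydroxylates the end carbon of fatty acids and eicosanoids, and its Cyp4a genes are classic targets of PPARα. Many members are best known from liver, though the ratios here cannot show in which tissue a member is highest.

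The promoters of 2 pairs of neighbouring paralogues are shown because their transcripts were correlated to different degrees in liver. The Cyp2b9 and Cyp2b13 windows were 99.3% identical, with 298 of 300 bases shared, and their transcripts had a correlation of 0.14 over the 40 livers. Cyp2b13 varied little in liver, with a within-group SD of 0.18 beside a median of 0.17 over all probe sets. Its low correlation therefore cannot be told apart from noise. The Cyp2c37 and Cyp2c50 windows shared 86.6% of 305 aligned columns, and their transcripts had a correlation of 0.97, though their probe sets may share signal. The sequences are RefSeq's for GRCm38.p6, from 250 bases before to 50 after an annotated start, all on the plus strand and written 5′ to 3′. In the NCBI table the gene begins at that start for Cyp2c37 (39992424) and Cyp2c50 (40089679). For Cyp2b9 (26173350) and Cyp2b13 (26061388) it begins before that start, at unlike places in the window, so more of these 2 windows lies inside the gene. Capitals mark bases that differ from the partner or have no counterpart in it. The windows lie at chr7:26173159-26173458 for Cyp2b9, chr7:26061245-26061544 for Cyp2b13, chr19:39992174-39992473 for Cyp2c37 and chr19:40089429-40089728 for Cyp2c50.
Cyp2b9: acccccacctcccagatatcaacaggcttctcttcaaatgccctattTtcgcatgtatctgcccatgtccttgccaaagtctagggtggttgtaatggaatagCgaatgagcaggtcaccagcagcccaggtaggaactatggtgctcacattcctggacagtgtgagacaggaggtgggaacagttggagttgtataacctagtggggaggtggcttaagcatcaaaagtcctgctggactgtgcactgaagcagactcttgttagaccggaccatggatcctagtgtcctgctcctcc
Cyp2b13: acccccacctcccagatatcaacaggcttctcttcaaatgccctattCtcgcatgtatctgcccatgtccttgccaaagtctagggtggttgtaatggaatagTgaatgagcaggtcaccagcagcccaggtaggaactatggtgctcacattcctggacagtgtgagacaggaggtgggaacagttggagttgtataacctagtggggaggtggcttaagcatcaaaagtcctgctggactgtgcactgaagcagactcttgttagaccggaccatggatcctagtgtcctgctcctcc
Cyp2c37: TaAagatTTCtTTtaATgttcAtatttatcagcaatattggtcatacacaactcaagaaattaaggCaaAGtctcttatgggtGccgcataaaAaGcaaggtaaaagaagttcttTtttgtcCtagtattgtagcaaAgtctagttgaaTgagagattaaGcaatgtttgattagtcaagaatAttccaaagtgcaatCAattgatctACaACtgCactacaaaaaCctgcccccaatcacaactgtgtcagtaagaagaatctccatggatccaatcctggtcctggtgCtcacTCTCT
Cyp2c50: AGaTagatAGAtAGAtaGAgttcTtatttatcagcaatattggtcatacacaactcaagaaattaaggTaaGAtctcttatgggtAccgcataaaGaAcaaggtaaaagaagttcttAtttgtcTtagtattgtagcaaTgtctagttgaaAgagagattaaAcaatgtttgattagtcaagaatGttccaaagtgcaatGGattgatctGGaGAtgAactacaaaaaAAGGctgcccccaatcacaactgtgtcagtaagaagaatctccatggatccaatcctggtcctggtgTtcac
A search of both strands found AGGTCA, a nuclear receptor binding element, in the promoters of 10 of the 33 member genes with a sequence (30.3%), beside 16.3% of 32851 promoters of the same length. AGTTCA was in 4 (12.1%, beside 14%) and TATAAA in 11 (33.3%, beside 13.6%). A member gene counted if any of its promoters matched, whereas the share over all is of single promoters, so the 2 shares are not quite alike. Cyp2b9 and Cyp2b13, with near-identical windows, both counted for AGGTCA. These matches describe letters in a window of 300 bases and are not binding sites.

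Diet was compared first in fat, over both genotypes. Under HFD the vitamin D 25-hydroxylase Cyp2r1, the fatty acid hydroxylase Cyp2u1 and several family 4 genes rose, while Cyp2f2, Cyp2d22 and Cyp2e1 fell. Of the 49 probe sets 13 passed the test (26.5%), 9 higher and 4 lower, beside 38.7% of all probe sets, 18.4% higher and 20.3% lower (limma with Benjamini-Hochberg adjustment over 32640 probe sets, adjusted p under 0.05). They stood for 11 genes, 8 higher and 3 lower. The share was thus below that of the whole array, and the median difference of the members was 0.10 on the log2 scale beside 0.02 for all probe sets. Because RNA came from whole tissue, fewer cells of a type and less RNA per cell cannot be told apart.

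Cyp2f2, known in the mouse for activating naphthalene in airway club cells, had the largest called fall in fat. On chow its log2 ratio ran from 0.26 to 1.69 with a median of 0.72 in Pro/Pro mice, and from -0.59 to 2.17 with a median of 0.46 in Ala/Ala mice. Under HFD it ran from -2.22 to 1.12 with a median of -0.40 in Pro/Pro, and from -1.91 to 1.11 with a median of -0.95 in Ala/Ala. The diets overlapped in both genotypes. The difference was -1.21 ± 0.29 (log2, SE; adjusted p = 0.000915), a 2.31-fold fall. In the same arrays 20.3% of all probe sets fell and 18.4% rose. Of 8 mesothelium markers 5 fell (Wt1 by 0.81, Upk3b by 0.75, Lrrn4 by 0.64 and Muc16 by 0.63 on the log2 scale) and 0 rose, with a list median of -0.53. The mean of these markers ran from -0.23 to 0.79 on chow and from -0.60 to 0.45 under HFD in Pro/Pro, and from -0.56 to 0.69 and from -0.90 to 0.27 in Ala/Ala, and its part in the Cyp2f2 result was not tested.

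Cyp2d22, the mouse relative of the human drug-metabolising CYP2D6, separated the diets completely in its second probe set. Its chow values ran from 0.47 to 0.91 with a median of 0.75 in Pro/Pro, and from 0.52 to 0.95 with a median of 0.78 in Ala/Ala. Its HFD values ran from -0.35 to 0.30 with a median of 0.05 in Pro/Pro, and from -0.50 to 0.30 with a median of 0.00 in Ala/Ala. No HFD array reached the lowest chow array in either genotype. The difference was -0.74 ± 0.07 (adjusted p = 3.61e-11), a 1.67-fold fall, and the first probe set gave -0.61 ± 0.08 (adjusted p = 3.67e-08). Of the other 5 Cyp2d probe sets, Cyp2d34 rose by 0.17 ± 0.05 (adjusted p = 0.00443) and 4 did not pass.

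Cyp2e1, which oxidises ethanol and acetone, also fell in fat. On chow it ran from 0.23 to 0.45 with a median of 0.30 in Pro/Pro, and from 0.16 to 0.46 with a median of 0.35 in Ala/Ala. Under HFD it ran from -0.58 to 0.23 with a median of 0.08 in Pro/Pro, and from -1.44 to 0.11 with a median of -0.03 in Ala/Ala. The diets did not overlap in Ala/Ala mice and met at 0.23 in Pro/Pro mice. The difference was -0.43 ± 0.09 (adjusted p = 0.000152).

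Cyp2r1, which makes 25-hydroxyvitamin D, had the largest called rise in fat. On chow it ran from -1.15 to -0.38 with a median of -0.79 in Pro/Pro, and from -1.27 to -0.22 with a median of -0.76 in Ala/Ala. Under HFD it ran from -0.75 to 0.90 with a median of -0.07 in Pro/Pro, and from -0.38 to 0.71 with a median of 0.14 in Ala/Ala. The diets overlapped at their edges in both genotypes, and the difference was 0.77 ± 0.11 (adjusted p = 6.13e-07), a 1.71-fold rise.

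Cyp2u1, which hydroxylates long-chain fatty acids, has 3 probe sets that moved by unequal amounts. The third ran on chow from -1.01 to -0.29 with a median of -0.59 in Pro/Pro, and from -1.01 to -0.37 with a median of -0.77 in Ala/Ala. Under HFD it ran from -0.45 to 0.40 with a median of -0.05 in Pro/Pro, and from -0.54 to 0.32 with a median of -0.07 in Ala/Ala. A few arrays overlapped between the diets in each genotype. The third probe set rose by 0.63 ± 0.07 (adjusted p = 8.34e-09), the second by 0.18 ± 0.05 (adjusted p = 0.00366), and the first had a difference of 0.10 ± 0.04 that did not pass (adjusted p = 0.0676).

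In family 4, Cyp4v3, the mouse counterpart of the human fatty acid hydroxylase CYP4V2, rose by 0.30 ± 0.07 (adjusted p = 0.000357). On chow it ran from -0.63 to 0.20 with a median of -0.35 in Pro/Pro and from -0.50 to 0.12 with a median of -0.23 in Ala/Ala. Under HFD it ran from -0.21 to 0.23 with a median of -0.01 and from -0.05 to 0.35 with a median of 0.11, with overlap in both genotypes. The first probe set of Cyp4f16, from the subfamily that inactivates leukotrienes, rose by 0.33 ± 0.07 (adjusted p = 0.000126), from chow medians of -0.29 and -0.30 to HFD medians of -0.03 and 0.06, while the second had a difference of 0.04. Cyp4a31, of the PPARα-responsive subfamily, rose by 0.32 ± 0.08 (adjusted p = 0.00201). Cyp4f18, which hydroxylates leukotriene B4 in mouse myeloid cells, had a difference of -0.17 that did not pass (adjusted p = 0.0535). Smaller calls were Cyp2b9, higher by 0.29 ± 0.06 (adjusted p = 0.000405), and the arachidonic acid epoxygenase subfamily member Cyp2j11, higher by 0.16 ± 0.05 (adjusted p = 0.00894). Of the other subfamilies, Cyp2a, Cyp2c, Cyp2g, Cyp2s, Cyp3a and Cyp4b had 0 calls in this fit.

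**Figure D1:**
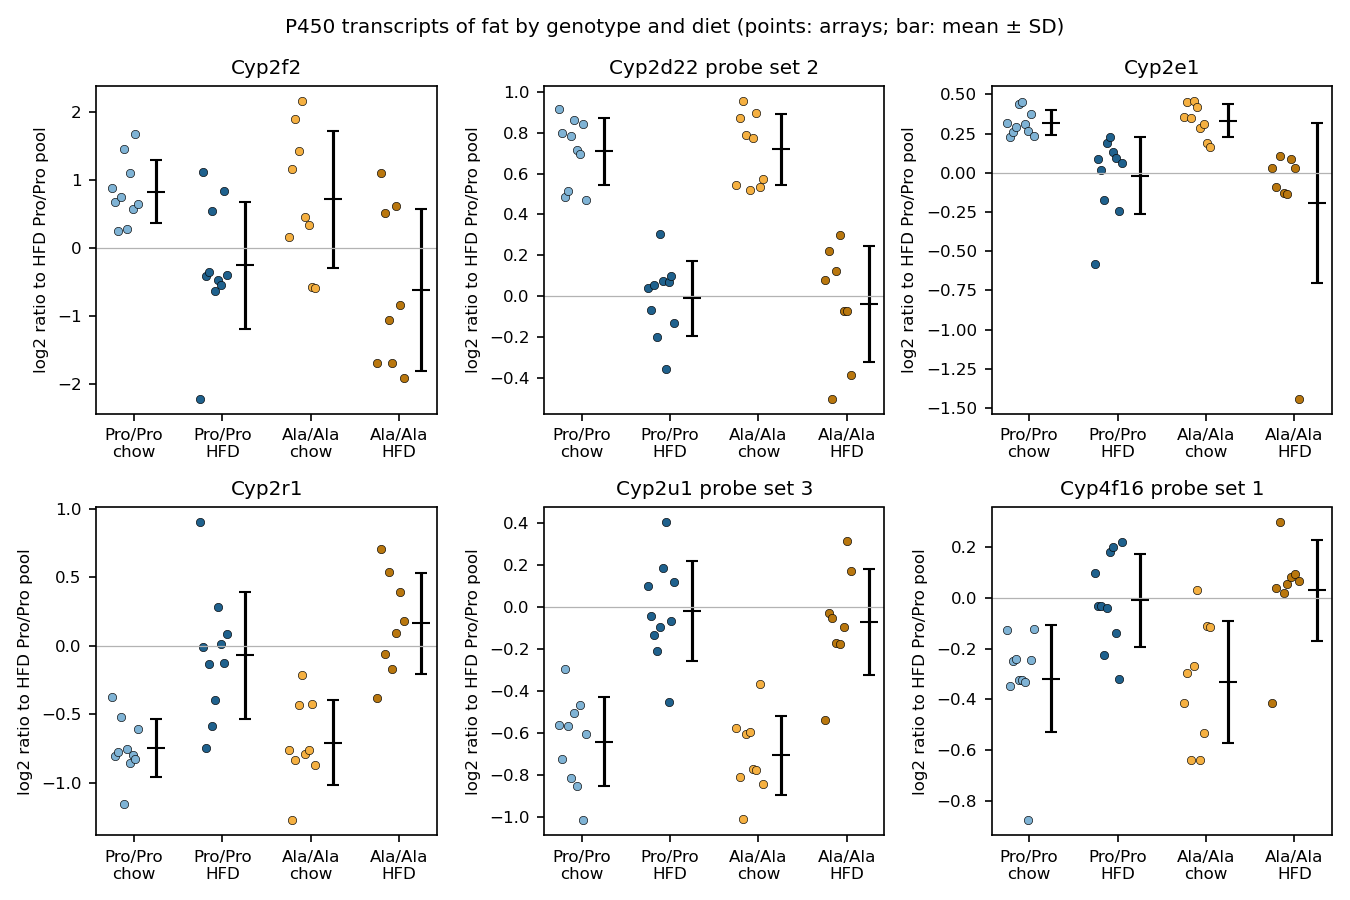
Log2 ratio to the pool (vertical axis) of P450 probe sets in fat, with 1 point per array and 4 groups by genotype and diet. The second Cyp2d22 probe set separates chow from HFD without overlap, whereas Cyp2f2 spreads from -2.22 to 2.17 and overlaps.

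Taken by genotype, 11 probe sets passed in Pro/Pro mice, 6 higher and 5 lower, beside 22.5% of all probe sets (9.36% higher and 13.1% lower). In Ala/Ala mice 12 passed, 8 higher and 4 lower, beside 26.9% (12.3% higher and 14.6% lower). Cyp2r1 rose by 0.68 ± 0.15 in Pro/Pro and by 0.87 ± 0.16 in Ala/Ala (adjusted p = 0.000889 and 0.000111). The fall of Cyp2f2 was -1.09 ± 0.39 in Pro/Pro and -1.34 ± 0.43 in Ala/Ala (adjusted p = 0.0411 and 0.0173). The Pro/Pro call was lost without any 1 of 11 arrays (adjusted p up to 0.0974) and without the 14 arrays of other organs described below (adjusted p = 0.0588). Cyp4f18 was called lower in Pro/Pro (-0.28 ± 0.10, adjusted p = 0.0373), and this call was lost without any 1 of 10 arrays (adjusted p up to 0.0851) and without those 14 (adjusted p = 0.0561). The test of the difference in diet effect between the genotypes called 0 members and 0% of all probe sets in limma, with 3 members at an unadjusted p under 0.05, beside 4.97% of all.

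Genotype was compared next in fat. Over both diets 0 members passed, beside 0.0429% of all probe sets, and 1 of 49 had an unadjusted p under 0.05 in limma, beside 6.04% of all. That probe set was Cyp2g1, an enzyme of the olfactory mucosa, with a difference of 0.13 ± 0.05 (adjusted p = 0.723). Its medians were 0.06 and 0.00 in Pro/Pro on chow and HFD and 0.10 and 0.26 in Ala/Ala, with overlap throughout. The next smallest p belonged to Cyp2d34, with a difference of -0.10, and to Cyp3a16, a steroid oxidase, with -0.07 (adjusted p = 0.827 for both). On chow and under HFD taken alone 0 members passed in limma, beside 0.0153% and 0.0705% of all probe sets, with 2 at an unadjusted p under 0.05 in each, beside 2.27% and 9.02%. The t-test that the study's methods name was made within each diet. At a false discovery rate of 0.05 or 0.20 it also called 0 members for genotype in fat, muscle and liver. The share of all probe sets that it called is not given, so this count cannot be set against the whole array.

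The fat arrays held varying amounts of hepatocyte transcripts. The mean of 11 hepatocyte markers outside families 2 to 4 ran from -3.74 to 2.89 in fat, with group medians of -3.49 on chow in both genotypes, -2.12 under HFD in Pro/Pro and -1.96 in Ala/Ala. Of these 11 markers 0 passed the diet test over both genotypes in limma, beside 38.7% of all probe sets. Of 11 epididymis and testis markers 4 rose under HFD and 0 fell, beside 18.4% and 20.3% of all probe sets, with a list median of 0.30. The mean of the epididymis and testis markers ran from -2.16 to -1.68 on chow and from -2.08 to 1.26 under HFD in Pro/Pro, and from -2.15 to -1.88 and from -2.01 to -0.67 in Ala/Ala. The part of these markers in the diet results was not tested beyond leaving out arrays. The 12 arrays high in hepatocyte markers and the 4 high in epididymis and testis markers came to 14 arrays, 2 on chow and 5 under HFD in each genotype.

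Without those 14 arrays 13 members passed over both genotypes, 11 of them among the 13 called with all arrays, beside 26.6% of all probe sets. In Pro/Pro 8 passed, beside 18.3%, and in Ala/Ala 5, beside 10.8%. Cyp2f2 then differed by -1.58 (adjusted p = 0.00213), the second probe set of Cyp2d22 by -0.64 (adjusted p = 4.52e-06), Cyp2r1 by 0.67 (adjusted p = 0.00186) and Cyp2e1 by -0.33 (adjusted p = 0.00234). The first probe set of Cyp2d22 gave -0.46, the third of Cyp2u1 0.65, Cyp4v3 0.32, the first of Cyp4f16 0.30, Cyp4a31 0.40, Cyp2b9 0.31 and Cyp2d34 0.24, all still past the threshold. Cyp2j11 and the second probe set of Cyp2u1 no longer passed (adjusted p = 0.108 and 0.0769), while Cyp2c23, an arachidonic acid epoxygenase, passed at 0.47 (adjusted p = 0.0415, against 0.0624 with all arrays) and Cyp2b10 at 0.37 (adjusted p = 0.0458, against 0.166). Within Ala/Ala mice alone, Cyp2r1 differed by 0.56 (adjusted p = 0.12) and the first probe set of Cyp2d22 by -0.30 (adjusted p = 0.157).

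Another group of P450 transcripts in fat followed the hepatocyte markers. In fits with the 4 groups as terms, 17 of 49 probe sets rose with the marker mean, beside 0.882% of all probe sets, and 9 did in muscle, beside 0.414%. The steepest in fat were Cyp2d26 at 0.75 log2 per log2, the male-specific steroid 16α-hydroxylase Cyp2d9 at 0.64, the steroid and drug oxidase Cyp3a25 at 0.63 and the second probe set of Cyp2j5 at 0.57. In muscle Cyp2d26 had a slope of 0.60, Cyp2d9 of 0.55 and Cyp3a25 of 0.38. None of the 13 probe sets called for diet over both genotypes was among the 17. Without the arrays high in these markers, and in fat also without those high in epididymis and testis markers, leaving 23 in fat and 24 in muscle, 1 probe set had a slope past the threshold in each tissue, Cyp3a25 in fat (beside 0.0613% of all probe sets) and Cyp2d26 in muscle (beside 0.11%).

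**Figure D2:**
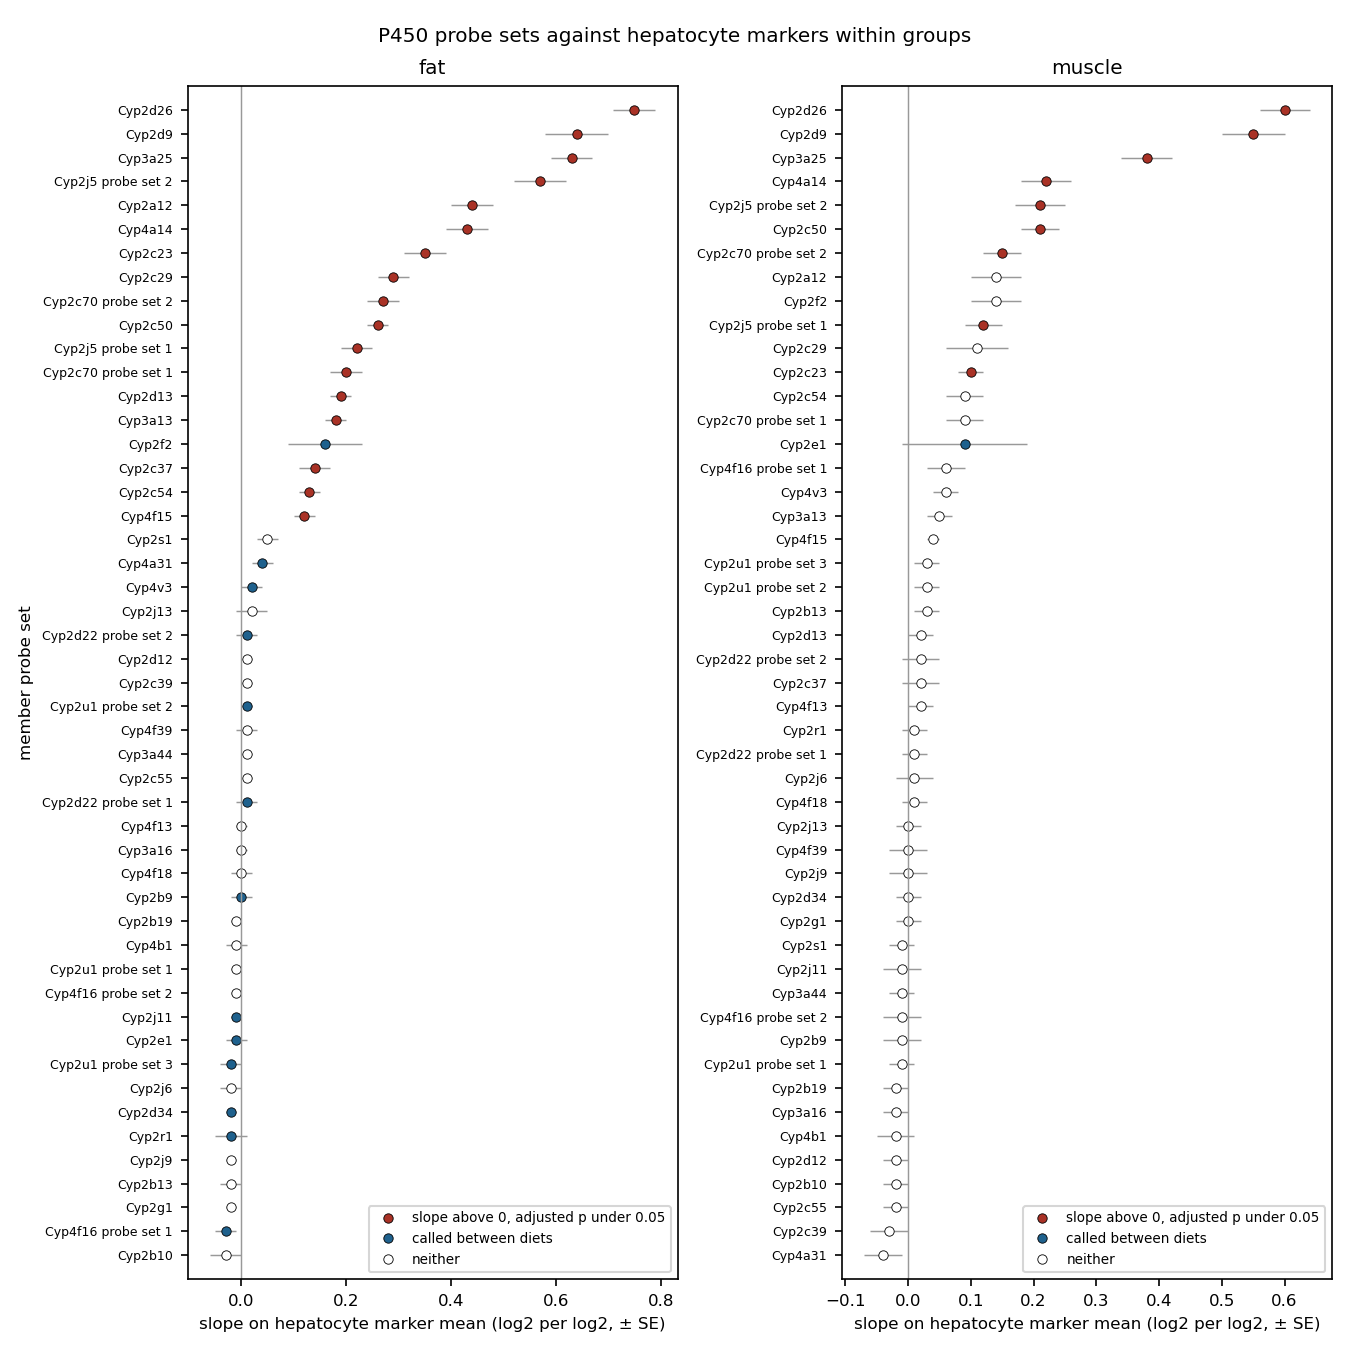
Slope of each P450 probe set on the mean of the hepatocyte markers (horizontal axis, log2 per log2, bars are SE) in fat and in muscle. Cyp2d26, Cyp2d9 and Cyp3a25 lead in both tissues, at 0.75, 0.64 and 0.63 in fat and 0.60, 0.55 and 0.38 in muscle.

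Cyp2d26 itself had values in fat from -2.74 to 1.08 in Pro/Pro on chow, -2.23 to 2.44 under HFD, -2.94 to 2.67 in Ala/Ala on chow and -2.34 to 3.09 under HFD. All 4 groups overlapped almost fully. Its diet difference of 0.90 ± 0.49 did not pass (adjusted p = 0.148), and the within-group SD of 1.57 was the highest of the 49 in fat.

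Enzymes and factors that serve P450s were looked at in the same fat arrays, where 18.4% of all probe sets rose and 20.3% fell, and their counts are read against those shares. Of 8 partners and haem supply genes, 4 rose under HFD, the cytochrome b5 gene Cyb5b by 0.62, its reductase Cyb5r3 by 0.64, the haem synthesis enzyme Alas1 by 0.26 and the haem oxygenase Hmox1 by 0.66. The P450 reductase Por fell by 0.31 (adjusted p = 7.01e-05), with a median of 0.16 for the list beside 0.02 for all probe sets. Of 6 epoxide hydrolases and flavin monooxygenases, Ephx1 rose by 0.53, and Fmo1, Fmo2 and Fmo5 fell by 0.37, 0.38 and 0.22. Of 13 regulators of P450 genes, 3 rose and 1 fell. The part that fell was smaller than on the whole array, and the part that rose was not. The xenobiotic receptor CAR (Nr1i3) was among the risers, higher by 0.23 (limma, adjusted p = 0.0135). Of 10 PPARα targets outside the P450 genes, 6 rose and 3 fell, with Pdk4 higher by 0.73, Acaa1b by 0.66 and Angptl4 by 0.25, and Acot2 lower by 0.33.

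In muscle the diet test over both genotypes called 1 of 49 members, Cyp2e1, beside 5.37% of all probe sets. On chow its values ran from -1.40 to 0.94 with a median of 0.19 in Pro/Pro, and from -0.95 to 0.73 with a median of -0.19 in Ala/Ala. Under HFD they ran from -2.0 to 0.24 with a median of -1.14 in Pro/Pro, and from -1.61 to 0.08 with a median of -0.51 in Ala/Ala. The diets overlapped in both genotypes, and the difference was -0.73 ± 0.22 (adjusted p = 0.0443). The call was lost without any 1 of 22 of the 35 arrays, with adjusted p from 0.0134 to 0.0802 over all 35 omissions.

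Cyp4b1, a family 4 enzyme known for activating lung toxins, was the single call in Ala/Ala muscle, beside 1.95% of all probe sets. It ran from -0.48 to 0.13 with a median of -0.13 on chow and from -0.13 to 0.43 with a median of 0.05 under HFD, so the diets overlapped. The difference was 0.31 ± 0.08 (adjusted p = 0.024). The mean of 7 adipocyte markers was 0.65 in Ala/Ala HFD muscle (from -0.00 to 1.25), beside 0.10 in Ala/Ala chow, 0.01 in Pro/Pro HFD and -0.01 in Pro/Pro chow. With that mean as a covariate, Cyp4b1 differed by 0.20 (adjusted p = 0.27), and the call was also lost without any 1 of 5 arrays. In Pro/Pro muscle 0 members passed in limma, beside 0.956% of all probe sets, with 5 at an unadjusted p under 0.05, beside 12% of all.

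Genotype in muscle gave 0 calls in limma over both diets, beside 0.0337% of all probe sets, with 3 at an unadjusted p under 0.05, beside 6.97% of all. The smallest p belonged to the epoxygenase Cyp2c55, with a difference of -0.12 ± 0.04 (adjusted p = 0.587), from Pro/Pro medians of -0.08 on chow and 0.01 under HFD to Ala/Ala medians of -0.14 and -0.18, with overlap. The second probe set of Cyp2j5, an epoxygenase of liver and kidney, had -0.25 ± 0.12 (adjusted p = 0.703) and Cyp4f15 had -0.09 ± 0.04 (adjusted p = 0.644). On chow and under HFD alone 0 members passed in limma, beside 0.0184% and 0.0153%, with 3 and 4 at an unadjusted p under 0.05, beside 3.19% and 8.22%. The difference between the diet effects gave 0 calls, beside 0%, with 3 at an unadjusted p under 0.05, beside 4.18%. Outside families 2 to 4, the soluble epoxide hydrolase Ephx2 rose by 0.51 under HFD in muscle (adjusted p = 3.56e-09), Por by 0.15 and Alas1 by 0.19.

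The diet effects over both genotypes were compared between tissues in 1 fit over all 12 groups. The effect in liver differed from that in fat for 8 members, beside 26.6% of all probe sets, and the effect in fat from that in muscle for 8, beside 25.1%. Cyp2f2 differed by 1.15 ± 0.25 for liver minus fat, the second probe set of Cyp2d22 by 0.79, Cyp2r1 by -0.70, the third of Cyp2u1 by -0.63 and Cyp4v3 by -0.36. For fat minus muscle the same probe sets differed by -0.92, -0.64, 0.77, 0.70 and 0.32. Cyp2c23 differed by -0.61 for liver minus fat (adjusted p = 0.0476), a call lost after median centring (adjusted p = 0.0534). It was among the 17 that rose with the hepatocyte markers in fat, with a slope of 0.35 (adjusted p = 1.31e-07), and the part of these markers in its diet difference was not tested between tissues. In fat its medians were -0.74 and -0.47 on chow and HFD in Pro/Pro and -0.88 and 0.20 in Ala/Ala, with arrays from -1.53 to 2.06. Liver minus muscle had 1 call, Cyp2e1 at 0.77 ± 0.19 (adjusted p = 0.0207), beside 0.824% of all probe sets. These 3 comparisons share their tissues in pairs, and the ratios of each tissue have their own pool.

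**Figure D3:**
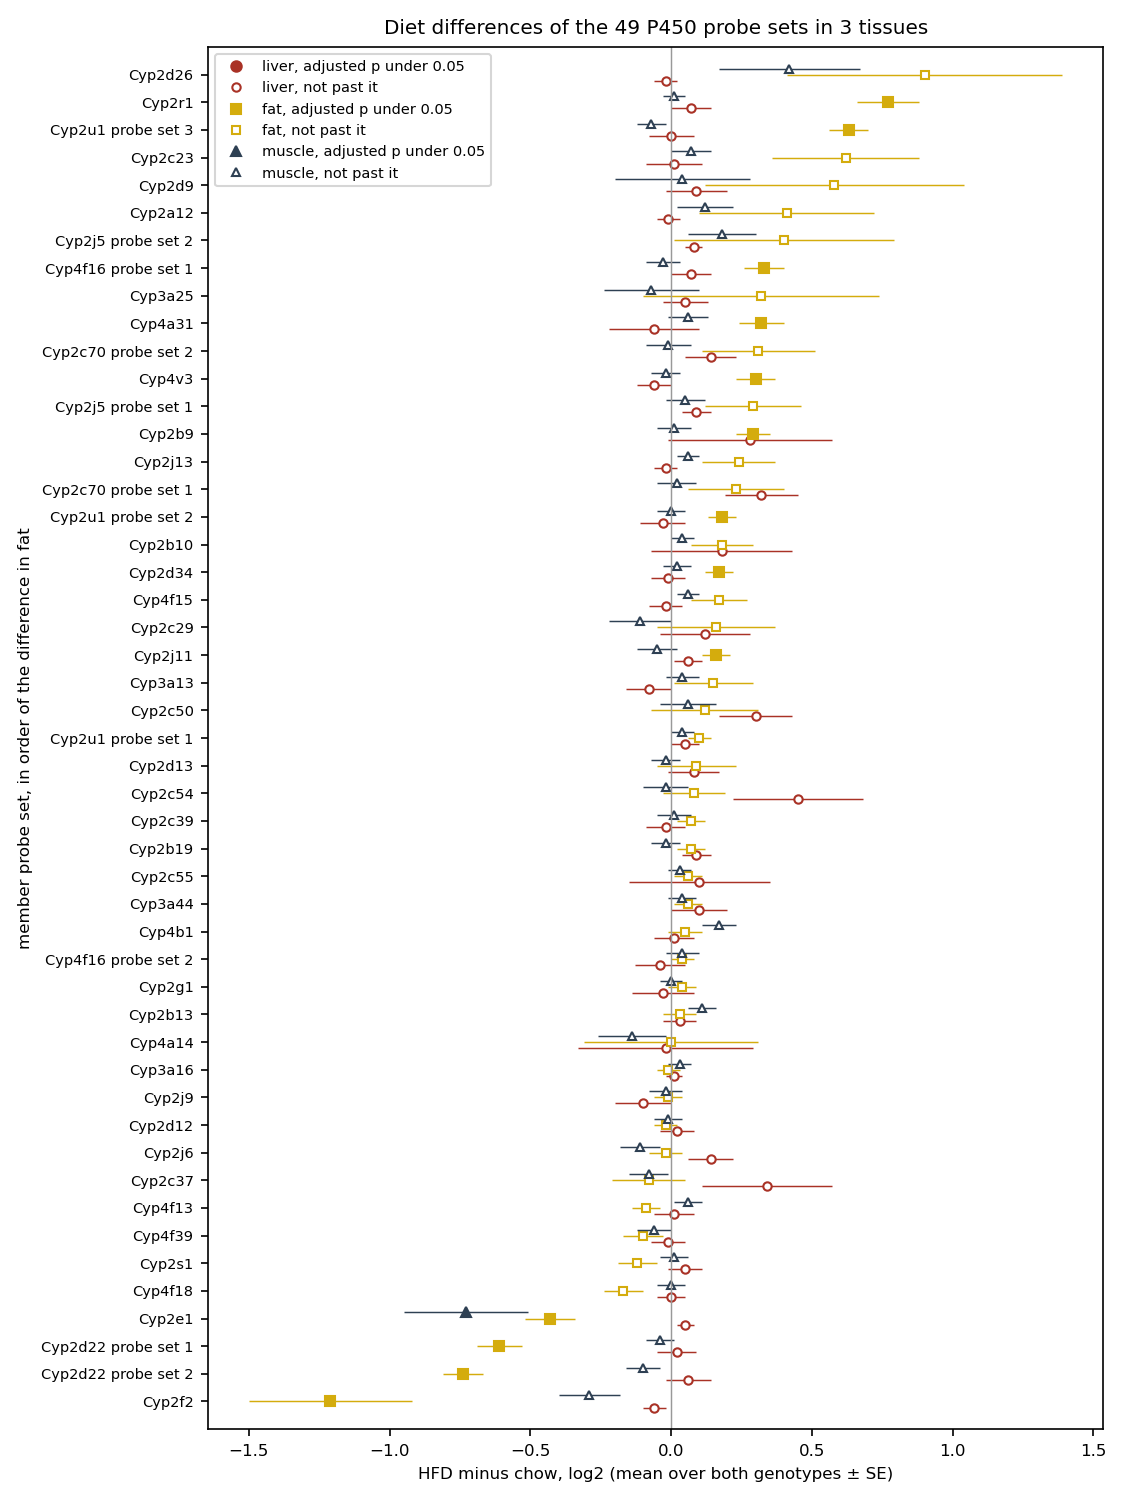
HFD minus chow of the 49 probe sets in liver, fat and muscle (horizontal axis, log2, mean over both genotypes, bars are SE), in the order of the difference in fat. Cyp2f2 lies lowest of the called probe sets in fat at -1.21 and Cyp2r1 highest at 0.77, while 0 liver points passed.

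In liver, the organ where many members are best known, 0 of 49 passed in any of the 7 contrasts (limma, adjusted p under 0.05). Of all probe sets 0.0153% passed for genotype over both diets and 0% in the other 6 contrasts. At an unadjusted p under 0.05, 14 members (28.6%) were on the list for genotype on chow, beside 9.7% of all probe sets, and 7 (14.3%, beside 5.8%) for diet in Pro/Pro. There were 8 (16.3%, beside 14.8%) for genotype over both diets, 3 (6.12%, beside 8.75%) for genotype under HFD, 4 (8.16%, beside 4.82%) for diet over both genotypes, 0 (beside 2.85%) for diet in Ala/Ala and 4 (8.16%, beside 3.56%) for the difference between diet effects. With mouse number and its square as covariates, a choice made after the data were seen, the count for genotype on chow was 5, beside 7.52% of all probe sets.

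Cyp2j6, of the arachidonic acid epoxygenases, had the smallest p for genotype over both diets. It ran from -0.65 to 0.34 with a median of -0.11 in Pro/Pro on chow and from -0.41 to 0.33 with a median of -0.03 under HFD. In Ala/Ala it ran from -0.34 to 0.46 with a median of 0.14 on chow and from -0.23 to 0.60 with a median of 0.29 under HFD. The genotypes overlapped on both diets. The difference was 0.29 ± 0.08 (adjusted p = 0.0887), and it passed without the Pro/Pro chow animal Mouse141 (adjusted p = 0.0468).

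Cyp2c37, Cyp2c50 and Cyp2c54 are neighbouring epoxygenase genes with near-identical sequences, so their probe sets may share signal and their separate values are uncertain. On chow, Cyp2c54 ran from -3.01 to 0.26 with a median of -1.41 in Pro/Pro and from -0.67 to 0.57 with a median of -0.06 in Ala/Ala. Under HFD it ran from -1.42 to 0.59 with a median of 0.13 in Pro/Pro and from -1.53 to 0.49 with a median of 0.08 in Ala/Ala. The Pro/Pro chow group was the low and wide one, and it overlapped the others. Cyp2c37 ran on chow from -2.47 to 0.38 with a median of -1.03 in Pro/Pro and from -0.60 to 0.72 with a median of 0.18 in Ala/Ala, and Cyp2c50 from -1.72 to 0.12 with a median of -0.78 and from -0.51 to 0.29 with a median of 0.08. Under HFD the medians were 0.13 and 0.15 for Cyp2c37 and 0.13 and 0.10 for Cyp2c50. Over both diets the genotype difference was 0.61 ± 0.23 for Cyp2c37 (adjusted p = 0.2) and 0.35 ± 0.13 for Cyp2c50 (adjusted p = 0.212). Genotype on chow differed by 1.06 ± 0.33 for Cyp2c54, 1.11 ± 0.32 for Cyp2c37 and 0.67 ± 0.19 for Cyp2c50, none past the threshold (adjusted p = 0.337, 0.308 and 0.308). With mouse number as a covariate these were 0.62, 0.81 and 0.46.

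**Figure D4:**
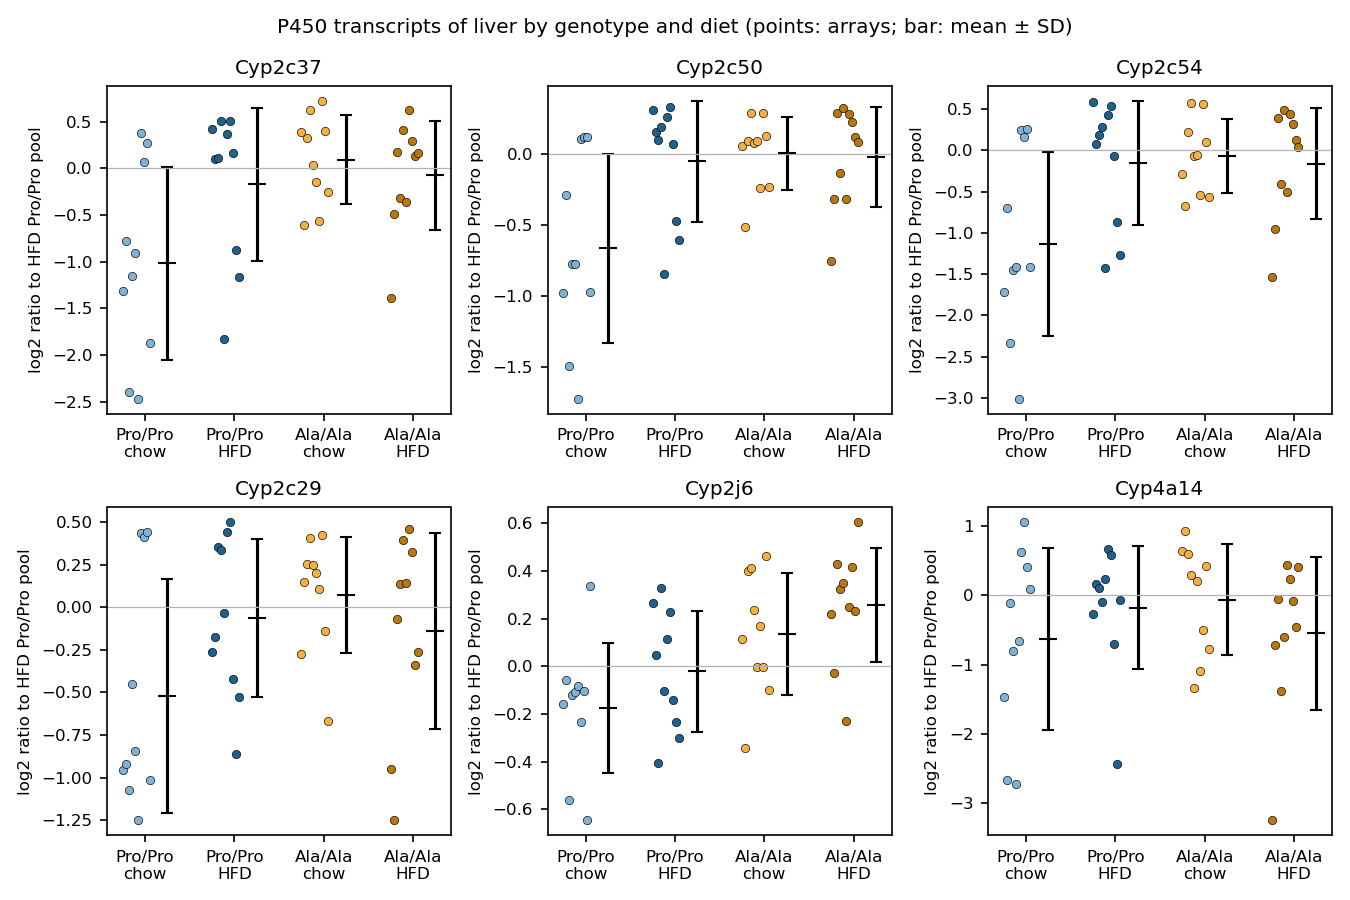
Log2 ratio to the pool (vertical axis) of P450 probe sets in liver, with 1 point per array and 4 groups by genotype and diet. The Pro/Pro chow group reaches down to -3.01 for Cyp2c54 and overlaps the other groups.

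The liver values of several members moved with the number in the name of the mouse, whose meaning the labels do not give. The number was split at gaps chosen after the values were seen, into 12 arrays from Mouse72 to Mouse99, 20 from Mouse101 to Mouse131 and 8 from Mouse137 to Mouse155, and no test was made. Cyp2c29, a CAR-inducible epoxygenase, ran from -0.04 to 0.50 with a median of 0.34 in the middle range, from -1.25 to -0.07 with a median of -0.88 in the low range and from -1.01 to -0.14 with a median of -0.47 in the high range. The middle range overlapped neither of the others. The CAR target Cyp2b10 had medians of -1.23, 0.11 and -0.84 in the low, middle and high ranges, and Cyp2c55 had -1.02, 0.34 and -0.99. Among the PPARα-responsive genes, Cyp4a31 had -0.53, 0.18 and -0.50, and Cyp4a14 had -0.69, 0.24 and -0.26. Of 49 members 30 had their highest median in the middle range, beside 36.1% of all probe sets, and 11 had it by over 0.3, beside 0.757%. Outside the P450 genes, the mean of PPARα targets had medians of -0.38, 0.08 and -0.21 and that of adipocyte markers 0.10, -0.16 and -0.02. Hepatocyte markers had medians of -0.00, -0.01 and 0.01 and Cyp2e1 of -0.06, 0.02 and -0.03, so these differed little between the ranges.

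The groups were spread unequally over these ranges. Of Pro/Pro chow livers 6, 3 and 1 lay in the low, middle and high ranges, of Ala/Ala chow livers 1, 7 and 2, of Pro/Pro HFD livers 2, 5 and 3 and of Ala/Ala HFD livers 3, 5 and 2. On chow within the middle range, Cyp2c54 ran from 0.16 to 0.26 in the 3 Pro/Pro livers and from -0.67 to 0.57 in the 7 Ala/Ala livers, with medians of 0.25 and -0.06. Cyp2c37 had medians of 0.27 and 0.04 there, and Cyp2c29 of 0.43 and 0.25. The Ala/Ala medians of these epoxygenases were thus the lower ones within that range, the opposite order to that over all chow livers. Cyp2j6 kept its order, with medians of -0.23 in Pro/Pro and 0.17 in Ala/Ala. In the low range the comparison rests on 1 Ala/Ala liver, at -0.28 for Cyp2c54, beside 6 Pro/Pro livers from -3.01 to -0.69. In the high range it rests on 1 Pro/Pro liver and 2 Ala/Ala livers. In that order the values or medians were -1.41 and -0.23 for Cyp2c54, -1.87 and 0.07 for Cyp2c37 and -1.01 and -0.40 for Cyp2c29. These epoxygenases thus kept the order over all chow livers in the low and high ranges. Cyp2j6 was at 0.34 and 0.18 in the high range, the opposite of its order over all chow livers. The fat groups were spread unequally too. Of Pro/Pro chow arrays 7, 2 and 1 lay in the low, middle and high ranges, and of Pro/Pro HFD arrays 2, 5 and 3. For Ala/Ala these were 1, 6 and 2 on chow and 3, 3 and 2 under HFD. Diet and number range were thus partly mixed in Pro/Pro fat. In fat the medians of the low, middle and high ranges were -0.14, -0.22 and -0.55 for Cyp2c29, -0.05, -0.06 and 0.04 for Cyp2c55, -0.23, -0.15 and -0.41 for Cyp2b10 and -0.40, -0.31 and -0.38 for Cyp4a14, so the last 2 were highest in the middle range there too. In muscle none of these 4 was highest in the middle range, with Cyp2c29 at -0.49, -0.50 and -0.48 and Cyp4a14 at -1.11, -1.22 and -0.92.

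**Figure D5:**
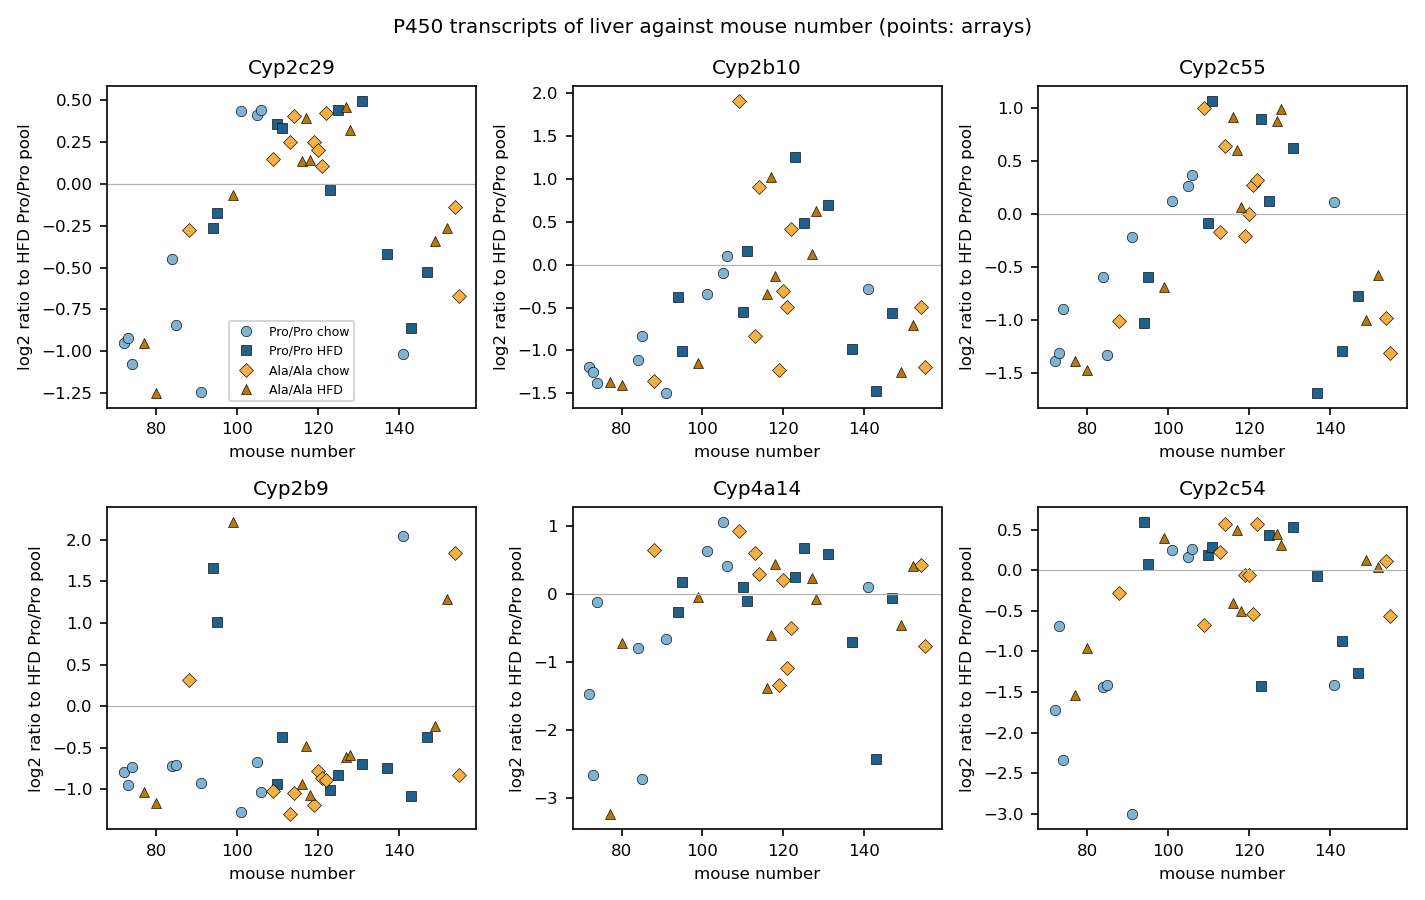
Log2 ratio to the pool (vertical axis) of P450 transcripts in liver against mouse number (horizontal axis), with 1 point per array. For Cyp2c29 the 20 arrays from Mouse101 to Mouse131 lie between -0.04 and 0.50, above all others.

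Members varied widely between livers of the same group. The within-group SD was 1.04 for Cyp4a14, whose arrays ran from -3.24 to 1.05, a 19.6-fold range, 0.99 for Cyp2b9, 0.86 for Cyp2b10 and for Cyp2c55, 0.79 for Cyp2c54 and 0.76 for Cyp2c37. The median SD over all probe sets in liver was 0.17. Over 0.5 lay 8 members in liver, 13 in fat and 4 in muscle, beside 1.42%, 3.1% and 0.493% of all probe sets. In fat all of these but Cyp2f2, and in muscle all but Cyp2e1, were among the probe sets that rose with the hepatocyte markers. The part of these markers in the spread was not tested. Above the median SD of all probe sets lay 37 of 49 in liver, 35 in fat and 32 in muscle. Cyp2e1, by contrast, stayed between -0.33 and 0.11 in liver.

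Deviations from the group means over the 40 livers were correlated for all 1176 pairs of members, with 100000 permutations each. Cyp2c50 and Cyp2c54 had a Pearson r of 0.98 (Spearman 0.97, 0.98 without the 2 farthest arrays), Cyp2c37 and Cyp2c50 0.97 (Spearman 0.93, 0.96 without them), and both had the smallest permutation p possible, 1e-05 (adjusted 0.00024). Within the low, middle and high number ranges Cyp2c37 and Cyp2c50 had 0.97 in each. The fatty acid hydroxylases Cyp4a14 and Cyp4a31 had 0.69 (Spearman 0.70, 0.68 without the 2 farthest; permutation p = 2e-05, adjusted 0.000406), and 0.70, 0.69 and 0.65 within the ranges. Cyp4a14 ran against the first probe set of Cyp2c70, the mouse bile acid hydroxylase that makes muricholic acids, with -0.73 (Spearman -0.70, -0.77 without the 2 farthest; permutation p = 1e-05, adjusted 0.00024), and -0.74, -0.76 and -0.71 within the ranges. Cyp2b9 and Cyp2b13 had 0.14 (Spearman 0.12, 0.24 without the 2 farthest; permutation p = 0.382, adjusted 0.578), and -0.18, -0.08 and 0.67 within the ranges, the last over 8 livers. Cyp2b10 and Cyp2c55 shared the number pattern, so only within-range values are given, 0.17, 0.71 and 0.86. Cyp2c37, Cyp2c54, Cyp4a14 and Cyp4a31 were also among the 11 members highest in the middle range by over 0.3. Their correlations and permutation p over all 40 livers thus include that pattern, and the within-range values are the ones without it. For Cyp2c50 and Cyp2c54 these were 0.98, 0.99 and 0.97.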

How the data were processed

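Male mice were measured on 112 arrays of 3 tissues. Per the labels, the authors made the deposited log10 ratios of each mouse to a virtual pool with Rosetta Resolver, and the array is an Affymetrix mouse array. The sample descriptions name another pool, of 10 wild-type samples. In fat and liver the HFD Pro/Pro arrays averaged a linear ratio of 1, to within 0.001 (log10), for 100% of probe sets. In muscle it was for 10.54%, with 8 of the 10 pool arrays used here, so base, direction and pool were assumed there. Array pairs within a tissue correlated down to -0.469 in fat, -0.387 in liver and -0.204 in muscle. No member value lay at the floor of -2 (log10). No intensities were used, so neither signal over background nor the study's filter on expressed genes could be taken into account.

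Ratios were turned to log2. A mean per group was fitted within tissues with limma 3.58.1 (R 4.3.3), with Benjamini-Hochberg adjustment over all 32640 probe sets. Replicates are separately numbered mice. A mouse number marks the same animal in several tissues (31 mice in 3 tissues, 9 in 2, 1 in 1). Between arrays of 1 mouse, deviations from group means had a median correlation of -0.00564 for liver and fat, -0.00317 for liver and muscle and 0.028 for fat and muscle. The members, lists and tests were chosen with earlier results of these data known. Values by group are given for up to 6 genes with the largest called diet difference in a tissue, the 3 smallest p for genotype over both diets where none passed, and up to 2 members that differ most between tissues. Cyp4b1 in muscle, Cyp2c54, Cyp2c29 and the other members of the mouse number and spread results in liver, and Cyp2d26 in fat were chosen after their values were seen. Alternatives were a false discovery rate of 0.20, median centring, quantile normalization, array weights, 1 probe set a gene, variance above the median, the methods' t-test, hepatocyte and adipocyte covariates, leaving out each array, and mouse number as a block. Fat was also fitted without the arrays whose mean over hepatocyte or epididymis and testis markers lay over 1 (log2) above the fat median. Mouse number as a covariate and the slopes without such arrays were chosen after seeing the data. The fit was checked on simulated data.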

Additional observations from a re-analysis of the deposited data

Results flagged for a closer look

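In 88 groups of arrays of the genes given by group, 13 arrays stood further from their neighbours than the 95% limit for a gap allows, and chance flags about 1 in 20 groups. Cyp2c23, the epoxygenase, had 3 of them, at 0.98 in fat of Pro/Pro chow Mouse73, 1.86 in fat of Ala/Ala chow Mouse113 and -0.55 in liver of Ala/Ala chow Mouse155. Both fat arrays were high in hepatocyte markers, with means of 1.18 and 2.89, with which Cyp2c23 rose in fat (slope 0.35), and their part in these values was not tested. Cyp2e1 lay at -1.44 in fat of Ala/Ala HFD Mouse152 and at -1.61 in muscle of Ala/Ala HFD Mouse80. Cyp2f2 lay at -2.22 in fat of Pro/Pro HFD Mouse94. The first probe set of Cyp4f16 lay at -0.87 in fat of Pro/Pro chow Mouse105 and at -0.41 in fat of Ala/Ala HFD Mouse77, and Cyp3a16 at 0.16 in fat of Ala/Ala chow Mouse120. In muscle, the second probe set of Cyp2j5 lay at -0.26 in Pro/Pro HFD Mouse125 and at -0.25 in Ala/Ala HFD Mouse149, Cyp2c55 at -0.46 in Ala/Ala chow Mouse113 and Cyp4v3 at -0.53 in Ala/Ala chow Mouse121.

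The diet effect differed between tissues past the threshold for 17 comparisons (limma, adjusted p under 0.05). For liver minus fat it differed by 1.15 for Cyp2f2, 0.63 and 0.79 for the first and second probe sets of Cyp2d22, -0.27 for the first of Cyp4f16, -0.63 for the third of Cyp2u1, -0.36 for Cyp4v3, -0.70 for Cyp2r1 and -0.61 for Cyp2c23. For fat minus muscle it differed by -0.92 for Cyp2f2, -0.57 and -0.64 for Cyp2d22, 0.36 for Cyp4f16, 0.70 for Cyp2u1, 0.32 for Cyp4v3, 0.77 for Cyp2r1 and 0.21 for Cyp2j11. For liver minus muscle Cyp2e1 differed by 0.77. The members called were 16.3% of the 49 for liver minus fat, below the 26.6% of all probe sets. They were 16.3% for fat minus muscle, below 25.1%, and 2.04% for liver minus muscle, beside 0.824%.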

How the results depend on the processing

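Among the named members 551 of the results under other settings kept direction and side of the threshold, 31 lost the call, 6 gained it and 1 turned its sign. That was Cyp2c23 in liver for diet over both genotypes, 0.01 as reported, -0.12 with mouse number as a covariate and -0.03 to 0.05 with single arrays left out, and it was called in none of these. At a false discovery rate of 0.20, which loosens the threshold, counts of called members became 23 for diet in fat over both genotypes, 3 for diet in muscle over both and 2 in Pro/Pro, 18 for liver minus fat, 13 for fat minus muscle and 1 for genotype in liver over both diets. Shares of all probe sets are not given beside the counts in this paragraph, which show only how the members' calls moved with the setting. At 0.05, 38.7% of all probe sets already passed for diet in fat over both genotypes. In Pro/Pro fat, 7 were called after quantile normalization and 7 with mouse number as a covariate. In Ala/Ala fat, 5 were called without the arrays of other organs, which also leaves fewer samples. In muscle over both genotypes, 2 were called with the adipocyte covariate, 2 with the hepatocyte covariate and 2 with mouse number, and 0 in Ala/Ala with the adipocyte covariate. The cause was not tested for these. Hepatocyte slopes numbered 1 in fat and 1 in muscle without the high arrays. With single arrays left out, counts ran from 13 to 18 in fat over both, 7 to 12 in Pro/Pro fat (lowest without Mouse72, Mouse85, Mouse106, Mouse125 or Mouse131), 11 to 15 in Ala/Ala fat, 0 to 2 in muscle over both, 0 to 1 in Pro/Pro muscle (1 without Mouse73 or Mouse131) and 0 to 1 in Ala/Ala muscle (0 without Mouse99, Mouse118, Mouse127, Mouse149 or Mouse154), and 0 to 1 for genotype in liver over both diets (1 without Mouse141). With mouse number as a replicate block the between-tissue counts were 8, 1 and 8, as without it. Cyp2c23 for liver minus fat lost its call under median centring (adjusted p = 0.0534) and quantile normalization (0.186), and Cyp2j11 for fat minus muscle under quantile normalization (0.0586). Signal over background is unknown here.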

Other observations

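Cyp2b9, a phenobarbital-inducible gene known to be higher in female than male mouse liver, lay above 0 in 7 of 40 male livers, at 0.32 to 2.21, and at -1.30 to -0.24 in the other 33. These 7 came from all 4 groups, and none lay from Mouse101 to Mouse131. In order of Cyp2b9 they were Mouse99 at 2.21, Mouse141 at 2.05, Mouse154 at 1.84, Mouse94 at 1.66, Mouse152 at 1.29, Mouse95 at 1.01 and Mouse88 at 0.32. Cyp2b13, whose promoter window differs at 2 bases, had -0.33, -0.10, 0.07, -0.13, -0.05, 0.10 and 0.09 in the same livers, so it did not share the high values. Its probe set varied little, from -0.60 to 0.35 over all 40 livers. In Mouse141, a Pro/Pro chow liver, the male-specific Cyp2d9 was at -1.34 and the mean of male-biased liver genes outside families 2 to 4 at -1.35. In Mouse99, the highest for Cyp2b9, they were at 0.13 and -0.13. The mean of female-biased liver genes outside families 2 to 4 was 0.43 in Mouse141 and 0.15 in Mouse99. Over the 7 livers this female-biased mean ran from -0.11 to 0.43, and the male-biased mean from -1.35 to -0.08. From Mouse101 to Mouse131 they ran from -0.55 to 0.96 and from -1.03 to 0.55. These values were picked after they were seen and no test was made.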
